A study of Homo sapiens with 2 samples.

Results

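The mRNAs of 49 factors that start, drive and end protein synthesis were followed in HEK293T cells. The members were taken from a fixed list of gene symbols, each matched to its Ensembl gene in the GRCh37 annotation, and all 49 had values among the 57736 genes measured. They comprised the initiation factors from eIF1 to eIF6, the eIF4E-binding proteins, eIF5A, the elongation factors eEF1 and eEF2, both release factors and the cytoplasmic poly(A)-binding protein.

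HEK293T cells descend from human embryonic kidney and express the large T antigen of SV40. The cells were untreated, were of the wild type genotype by their label, and grew at 37 °C and 5% CO2 in DMEM with 10% serum to 80% confluency. Poly(A)+ RNA was sequenced with 50 bp reads in 2 replicate libraries that form 1 group, so no condition was compared with another. The labels do not say whether the replicates came from separate cultures, so every spread given here is that between 2 libraries and may be technical.

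Initiation begins when eIF1, eIF1A and eIF3 load the small ribosomal subunit with the initiator tRNA that eIF2 carries. The eIF4 proteins recognise the cap of the mRNA, unwind its leader and link it to the poly(A)-binding protein. Elongation then cycles between eEF1A, which delivers aminoacyl-tRNA, and eEF2, which moves the ribosome by a codon, until the release factors free the finished chain. Many of these genes have processed pseudogenes, which are copies of the mRNA pasted back into the genome, and a number of their mRNAs start with a pyrimidine tract called a TOP motif, through which their translation follows nutrient signals.

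The libraries held 10593491 and 10104118 estimated counts, which are reads per gene with ambiguous reads shared out among the genes they fit. Values compared between genes are TPM, a measure of transcript number that is corrected for length and scaled so that every library has an equal sum. The tissue label of the cells is kidney, and of 11 markers of differentiated or developing kidney 3 reached a TPM of at least 1 in both libraries, namely LRP2, WT1 and PAX2, while 4 had no reads in either. The 11 markers summed to 22.9 and 23.4 TPM. LRP2, a receptor of the proximal tubule, had 8.28 and 9.96 TPM, and WT1, a factor of kidney development and of podocytes, had 10.0 and 10.5 TPM. The podocyte marker NPHS1 and the tubule markers UMOD, SLC12A1, SLC12A3, AQP2, SLC34A1 and CUBN were at or near 0. PAX8, like WT1 a factor of kidney development, was also near 0, with 0 and 0.05 TPM.

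The sequences that separate a factor from its copies are shown first, since they decide how firmly a 50 bp read can be placed. EEF1A1, which encodes the main form of eEF1A, lies on chromosome 6 from 74199031 to 74235310 on the minus strand. Its processed pseudogene EEF1A1P5 lies on chromosome 9 from 135894873 to 135896261 on the plus strand. Over the 1389 aligned bases the canonical transcripts differed at 4 positions, an identity of 99.7%. The stretch around 1 of these differences is given in a coding exon of EEF1A1 at chr6:74229061-74229120 and in the copy at chr9:135895136-135895195 (GRCh37), 5′ to 3′ on the strand of each gene, with the differing base in capitals.
EEF1A1: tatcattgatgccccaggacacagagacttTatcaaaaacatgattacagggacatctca
EEF1A1P5: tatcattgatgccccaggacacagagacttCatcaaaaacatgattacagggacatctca
Of the 1340 windows of 50 bases in EEF1A1P5, 1140 were also in EEF1A1 and 200 were not.

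EIF3C and EIF3CL, genes on chromosome 16 that encode the c subunit of eIF3 and its near-identical twin, were closer still. Their canonical transcripts aligned over 2910 bases with 0 substitutions and a gap of 3 bases, which is an extra repeat unit in EIF3CL. The stretch, within an exon of each gene, is at chr16:28734551-28734607 on the plus strand in EIF3C and at chr16:28403338-28403397 on the minus strand in EIF3CL, with the extra bases in capitals where the alignment placed them.
EIF3C: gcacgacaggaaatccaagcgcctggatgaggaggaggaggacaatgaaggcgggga
EIF3CL: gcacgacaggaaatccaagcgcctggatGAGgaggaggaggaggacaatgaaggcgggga
Only 38 of the 2864 windows of 50 bases in EIF3CL were not in EIF3C.

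EIF1AX encodes eIF1A, and its copy EIF1AXP1 differed from it at 2 of 435 aligned bases, with 83 of 386 windows not shared. The stretch around 1 difference, in capitals, is in a coding exon of EIF1AX at chrX:20150300-20150359 and in EIF1AXP1 at chr1:17012214-17012273, both on the minus strand.
EIF1AX: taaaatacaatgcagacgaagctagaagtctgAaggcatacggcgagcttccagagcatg
EIF1AXP1: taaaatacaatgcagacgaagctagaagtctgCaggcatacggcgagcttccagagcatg
The other pairs examined were less alike. EIF4E and EIF4EP2 had 99.4% identity over 654 bases, EIF2S2 and EIF2S2P4 98.9% over 984 bases, EIF4B and EIF4BP7 98.3% over 1813 bases, and EIF5A and EIF5AL1 98.0% over 1211 bases.

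All 49 factors were detected, that is, no TPM was under 1 in either library. This was reached by 27.7% of all 57736 genes and by 63.7% of the 19391 protein-coding genes. The median member had 196 TPM, against 14.7 for all detected genes and 21.2 for the detected protein-coding genes, and it ranked at percentile 96.2 among the detected genes. At least 100 TPM was reached by 38 members and at least 1000 TPM by 7, the latter among 122 detected genes at that level. The 49 members summed to 21254 TPM in replicate 1 and 20487 TPM in replicate 2, which is 2.09% ± 0.0542 of the total (SD, n = 2). In estimated counts, which are not corrected for length, their share was 2.40% ± 0.0204. The 5 highest members alone held 47.6% of the TPM of the list.

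**Figure D1:**
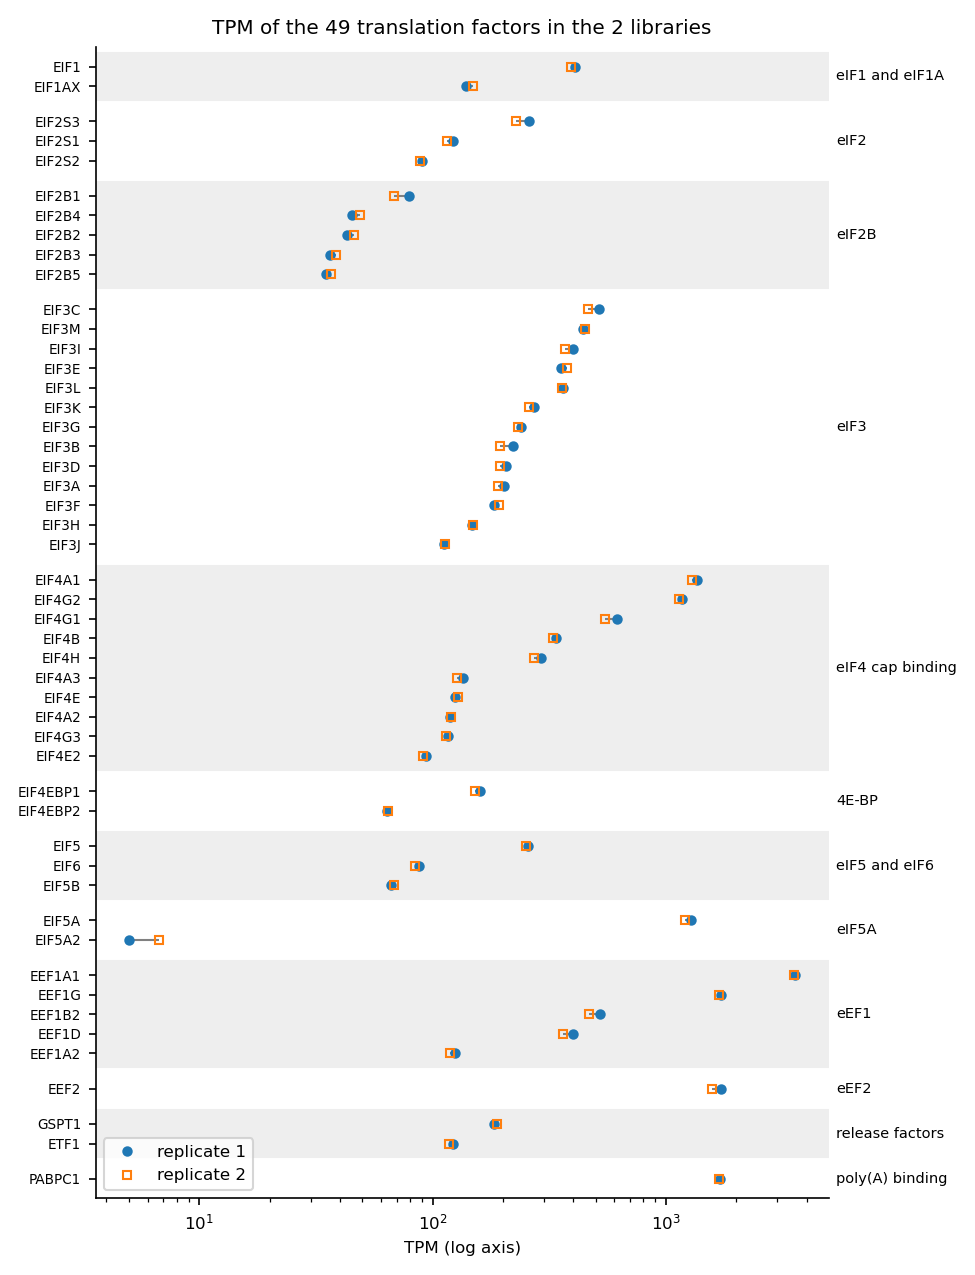
TPM (log axis) of each of the 49 factors in replicate 1 (filled circles) and replicate 2 (open squares), grouped by complex and ordered by mean within each group, with a line joining the libraries. EEF1A1 sits highest at 3575 and 3548 TPM, EIF5A2 lowest at 5.00 and 6.73 TPM, and the libraries lie close together for nearly all factors.

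Of the groups by complex, eEF1 held the largest share of the TPM of the list, and EEF1A1 and EEF1G had the highest means of all members. Not every elongation factor ranked so high. By mean TPM, PABPC1 lay above EEF2, and EIF4A1 and EIF4G2 lay above EEF1B2, EEF1D and EEF1A2. EEF1A1 had 3575 TPM in replicate 1 and 3548 TPM in replicate 2, and its paralog EEF1A2, the form known from muscle and neurons, had 124 and 118 TPM. The level of EEF1A1 was therefore 28.8 times that of EEF1A2 in replicate 1 and 30.0 times in replicate 2. These ratios leave out what was placed at EEF1A1P5, the copy of EEF1A1, which had 1619 and 1466 TPM. EEF1G, EEF1B2 and EEF1D encode the subunits of the exchange factor that reloads eEF1A with GTP. EEF1G had 1727 and 1691 TPM, EEF1B2 523 and 466 TPM, and EEF1D 401 and 361 TPM. These levels did not overlap between the libraries, so the order EEF1G, EEF1B2, EEF1D held in both. EEF2, encoding the translocase, had 1713 and 1566 TPM. The 5 genes of eEF1 held 6267 ± 115 TPM together (SD, n = 2), which was 30.0% of the TPM of the list, and EEF2 held 7.86%.

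EIF5A encodes the factor that carries hypusine, a modified lysine, and helps the ribosome through difficult peptide bonds. It had 1285 and 1209 TPM. Its paralog EIF5A2 had 5.00 and 6.73 TPM and was the lowest of the 49, at percentile 31.0 of the detected genes, while the second lowest member, EIF2B5, had a mean of 35.8 TPM. EIF5A exceeded EIF5A2 by 257-fold in replicate 1 and by 180-fold in replicate 2. The estimated count of EIF5A2 was 87.8 in both libraries, and the effective length used to turn it into TPM differed between them by a ratio of 0.772. The counts of EIF5A2 thus did not differ where its TPM did.

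Among the eIF4 proteins the helicase and a scaffold led. EIF4A1, the main RNA helicase of the cap complex, had 1356 and 1295 TPM. Its paralog EIF4A2 had 119 and 120 TPM, 11.4 and 10.8 times less than EIF4A1. EIF4A3, the related helicase of the exon junction complex, had 134 and 128 TPM. EIF4G2, a relative of the scaffold eIF4G that lacks the part binding eIF4E, had 1171 and 1141 TPM and lay above both classical scaffolds, EIF4G1 with 616 and 549 TPM and EIF4G3 with 117 and 114 TPM. EIF4B and EIF4H, which stimulate the helicase, had 338 and 329 TPM and 290 and 271 TPM.

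The cap-binding protein itself was among the less abundant of its complex. EIF4E had 125 and 128 TPM and EIF4E2, a cap-binding relative linked to repression, had 93.2 and 90.7 TPM. EIF4E and EIF4A3 overlapped between the libraries, while each other neighbouring pair of the 9 in this group kept its order. Of the eIF4E-binding proteins, which block the contact of eIF4E with the scaffold, EIF4EBP1 had 160 and 151 TPM and EIF4EBP2 had 63.9 and 64.0 TPM. EIF4EBP1 was higher by 2.50-fold in replicate 1 and by 2.36-fold in replicate 2. PABPC1, the poly(A)-binding protein that contacts eIF4G, had 1695 and 1680 TPM, and its relative PABPC4 had 230 and 203 TPM.

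eIF3, the scaffold of initiation with 13 subunits, ranged 4.35-fold ± 0.358 (SD, n = 2) in TPM from its lowest to its highest subunit. EIF3C was highest with 514 and 464 TPM. It was followed by EIF3M with 441 and 449 TPM and by EIF3I with 401 and 370 TPM. EIF3E had 356 and 376 TPM, EIF3L 363 and 357 TPM, EIF3K 271 and 259 TPM and EIF3G 239 and 232 TPM. Next in order, EIF3B had 221 and 194 TPM, EIF3D 207 and 195 TPM, EIF3A 201 and 191 TPM and EIF3F 183 and 192 TPM. EIF3H had 148 and 148 TPM. EIF3J, which is bound loosely to the complex, was lowest with 112 and 113 TPM. In this order 5 of the 12 neighbouring pairs overlapped between the libraries, among them every step from EIF3B down to EIF3F.

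**Figure D2:**
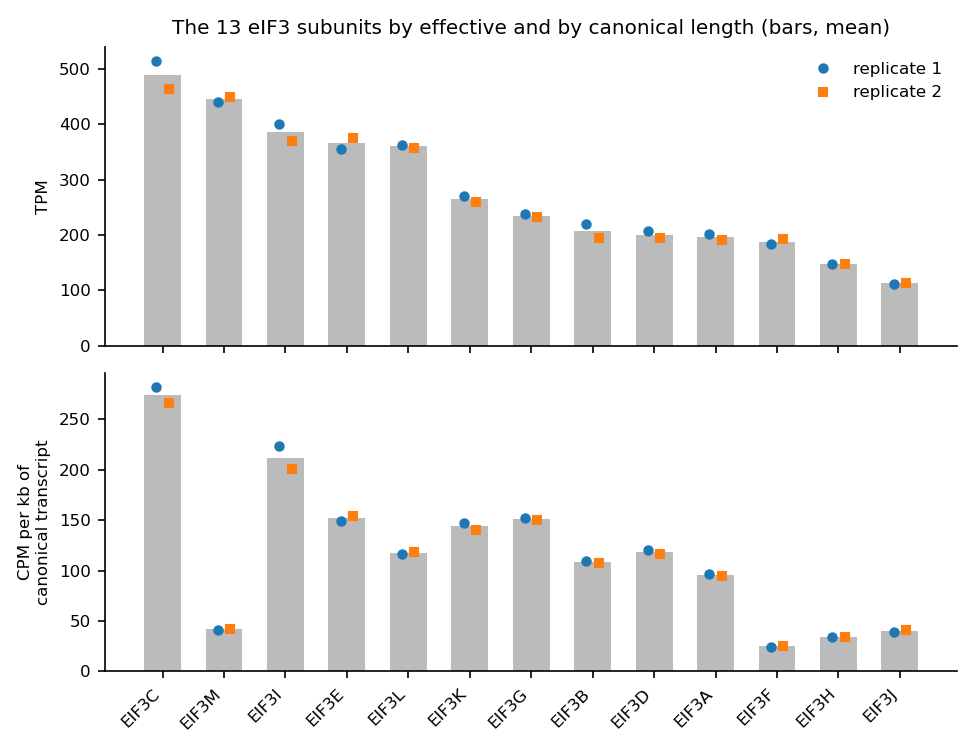
The 13 eIF3 subunits in order of mean TPM. The upper panel shows TPM and the lower panel CPM (counts scaled by the library total) per kilobase of the canonical transcript, with replicates as points and their mean as bars. EIF3C is highest in both panels, and EIF3M falls from the second place to among the lowest in the lower panel.

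The length used for the correction moved this range more than the libraries did. TPM divides by the effective length that the authors' tool estimated from the isoforms in each library, and dividing by the canonical transcript instead gave a range of 11.0-fold, from EIF3C to EIF3F. EIF3M, whose canonical transcript of 5047 bases is far longer than its effective length of 670 bases in replicate 2, moved from the second highest to the fourth lowest. Over estimated counts with no length the range was 8.07-fold. Without EIF3J it was 3.30-fold.

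The factors that bring in the initiator tRNA and choose the start codon were of middle abundance. EIF1, which guards start codon selection, had 408 and 390 TPM and its near copy EIF1B had 80.8 and 80.2 TPM. EIF1AX, its partner in scanning, had 139 and 149 TPM. Of the subunits of eIF2, the carrier of the initiator tRNA, EIF2S3 (gamma) had 258 and 229 TPM, EIF2S1 (alpha, the target of the stress kinases) 122 and 115 TPM, and EIF2S2 (beta) 90.2 and 88.1 TPM, in the same order in both libraries. EIF5, which triggers GTP hydrolysis on eIF2, had 255 and 250 TPM. EIF5B, which joins the ribosomal subunits, had 66.2 and 68.0 TPM. EIF6, which keeps the large subunit from joining too early, had 87.8 and 84.2 TPM.

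The 5 subunits of eIF2B, the exchange factor that recharges eIF2 with GTP, had the lowest median level of the groups among the 49 members, 44.4 TPM. They ran from EIF2B1 with 78.8 and 68.5 TPM through EIF2B4 with 45.3 and 48.9 TPM, EIF2B2 with 42.8 and 46.0 TPM and EIF2B3 with 36.3 and 38.7 TPM to EIF2B5, the catalytic subunit, with 34.9 and 36.7 TPM. EIF2B4 overlapped with EIF2B2 and EIF2B3 with EIF2B5. Together they had 238 ± 0.495 TPM (SD, n = 2), against 451 ± 27.4 TPM for the 3 subunits of eIF2. Termination rested on GSPT1 (eRF3) with 184 and 189 TPM and ETF1 (eRF1) with 122 and 117 TPM, and GSPT2, a second eRF3 gene, had 3.55 and 3.69 TPM.

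The 2 libraries were compared for each factor, to see which values differed by more than counting error. The test was an exact two-sided binomial test of rounded estimated counts against library sizes scaled by TMM, with Benjamini-Hochberg adjustment over the 17920 genes whose counts summed to 10 or more. It compares these libraries, not conditions, and the reads come from PCR without molecular identifiers, so its intervals cover counting error only. Of the 49 factors 7 differed (14.3%), against 3.87% of all genes tested. The members have many reads, with a median summed count of 4844 against 328 for all genes tested, and among the 4821 genes whose counts summed to 1000 or more the share was 6.72%, against 7 of the 45 members at that depth (15.6%). The largest log2 ratio among the 49 was 0.17 in size, and their median size was 0.05 against 0.13 for all genes. With an unadjusted p under 0.05 there were 15 members (30.6%) and 2383 of all genes tested (13.3%), so the libraries were not the same reads deposited again.

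**Figure D3:**
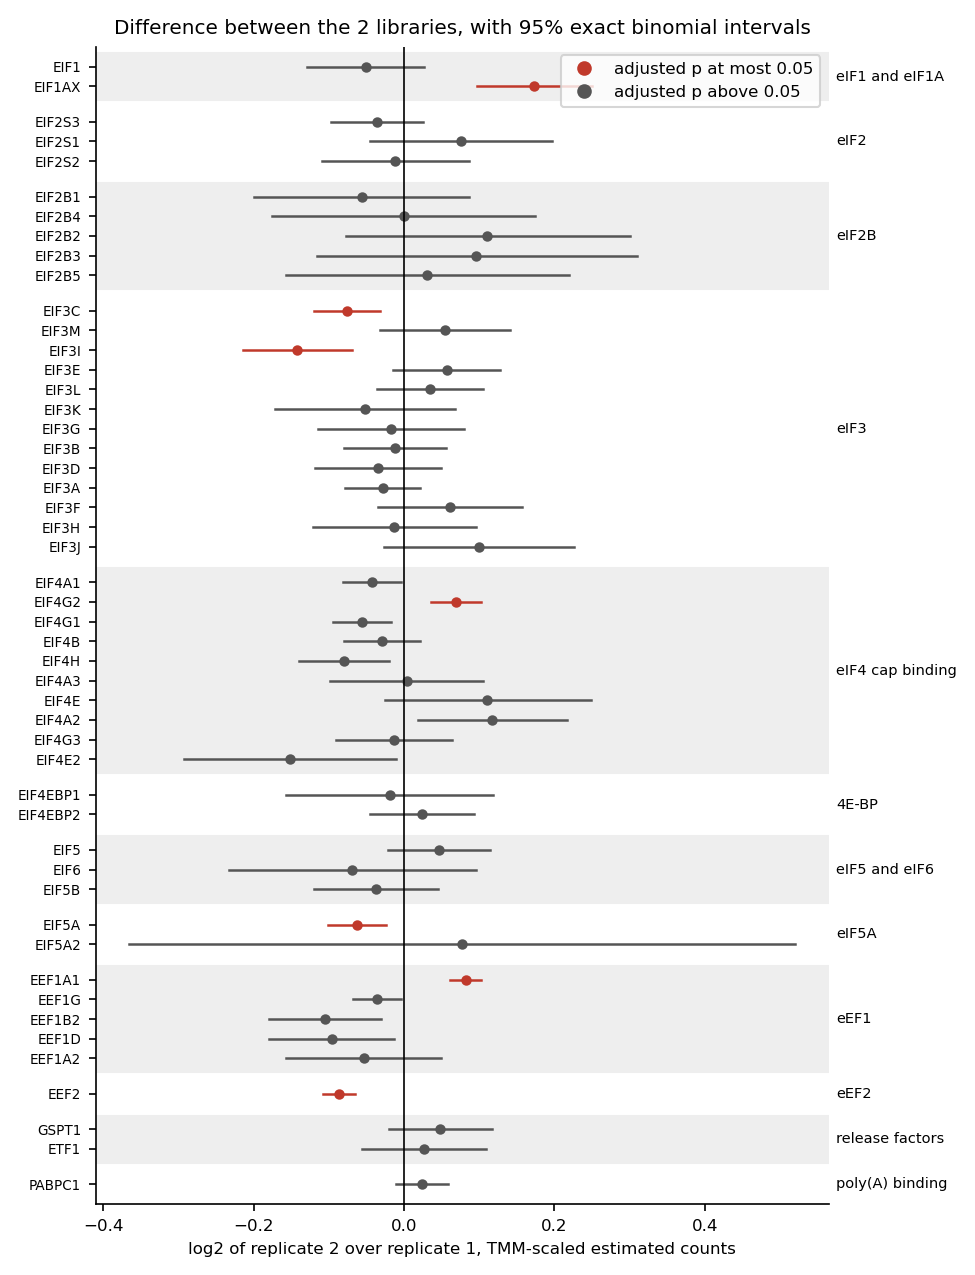
Log2 ratio of replicate 2 to replicate 1 in TMM-scaled estimated counts for each of the 49 factors, with 95% exact binomial intervals. The 7 factors in red passed an adjusted p of 0.05, and the largest of the 49 ratios is 0.17 in size.

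Of the 7, EEF1A1, EIF1AX and EIF4G2 were higher in replicate 2 and EEF2, EIF3I, EIF3C and EIF5A were higher in replicate 1. EEF2 had 37307 counts in replicate 1 and 33317 in replicate 2, a log2 ratio of -0.09 (adjusted p = 1.09e-12, exact binomial test). EIF3I had 3361 and 2887 counts, a log2 ratio of -0.14 (adjusted p = 0.00558, exact binomial test). EIF4G2 had 14349 and 14267 counts, a log2 ratio of 0.07 after scaling (adjusted p = 0.00317, exact binomial test). EIF3C, with a log2 ratio of -0.08, and EIF5A, with -0.06, passed at adjusted p values of 0.0258 and 0.0388 by the same exact test. EIF5A no longer passed with no filter on low counts (adjusted p = 0.0665, exact binomial test) or over the genes with a posterior SD under 10% (0.0597), and EIF4G1 passed only with scaling by total counts (0.0308, against 0.0915 with TMM).

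EEF1A1 and EIF1AX moved against their copies. EEF1A1 had 39492 and 39618 counts, a log2 ratio of 0.08 (adjusted p = 5.47e-13, exact binomial test), while EEF1A1P5 had 17743 and 15517 counts and was lower in replicate 2 (adjusted p = 7.21e-11, exact binomial test). EIF1AX had 2656 and 2838 counts, a log2 ratio of 0.17 (adjusted p = 0.000704, exact binomial test), while EIF1AXP1 had 260 and 150 counts and was also lower in replicate 2 (adjusted p = 0.000104, exact binomial test). In a step chosen after these values were seen, each factor was summed with its copies and the test repeated over all genes. Of the 49 members 5 then differed, against 682 of the 17897 genes tested. EEF1A1 and EIF1AX were the ones that no longer passed, with log2 ratios of 0.02 and 0.11 and adjusted p values of 0.127 and 0.0616 in that exact test. Only pseudogenes counted as copies, so EIF3CL was not added to EIF3C, nor EIF5AL1 to EIF5A. EIF3C and EIF5A were among those that still passed.

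TPM and counts did not give the same direction for every factor. In TPM 33 of the 49 members were lower in replicate 2, and in 10 members the ratio of TPM and that of CPM lay on opposite sides of 1. EEF1A1 and EIF4G2 were among these, higher in replicate 2 by the count test and lower by TPM. The gene with the highest TPM of all, a pseudogene, went from 85923 to 104673 TPM between the libraries, and TPM sums to the same total in each. Leaving it out of the total brought the members to 2.31% ± 0.0262 of the TPM (SD, n = 2). The effective lengths of 3 members, EIF2S1, EIF3B and EIF5A2, differed between the libraries by at least 1.1-fold (6.12%, against 31.7% of the detected protein-coding genes). The median coefficient of variation of TPM was 3.38% over the members, against 6.62% over the detected protein-coding genes. The members have more reads, with a median summed count of 4844 against 328 for all genes tested, and genes of equal depth were not compared for this value.

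The posterior SD of an estimated count describes how far reads that fit several genes could be shared out differently. None of the 49 reached 10% of its posterior mean in either library, against 9.71% of the detected genes. The medians were close, 0.0770% in the members and 0.0855% in the detected genes, taking the larger of the 2 libraries. The members have more reads, and genes of equal depth were not compared for the posterior SD. The highest member was EIF4E with 3.06%, followed by EIF3C with 1.93%, EIF2S2 with 1.71% and EEF1A1 with 0.953%. In these genes the SD lay with a copy. For EEF1A1 it was 376 counts in replicate 1 and 358 in replicate 2, and for EEF1A1P5 it was 375 and 358. For EIF3C and EIF3CL it was 147.5 counts in replicate 1 and 147.4 in replicate 2, the same in both genes, and this compares with the 203 and 173 counts that EIF3CL received. The level of EIF3CL, 8.98 and 7.96 TPM, is therefore uncertain. Adding all of it to EIF3C would take the range of eIF3 from 4.35-fold to 4.42-fold.

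**Figure D4:**
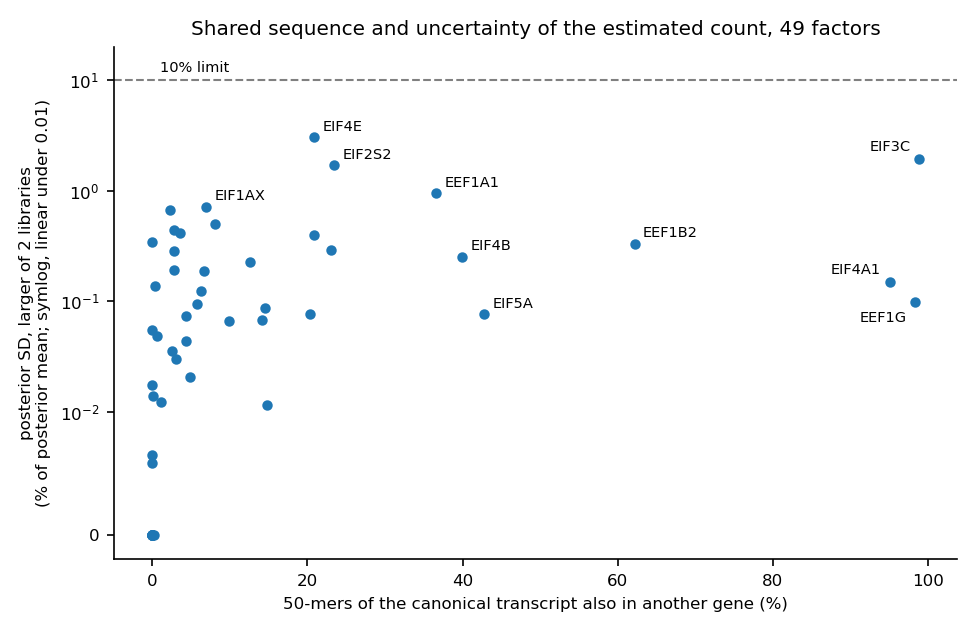
For each of the 49 factors, the percent of 50-base windows of its canonical transcript that also occur in another gene (horizontal axis) and the posterior SD of its estimated count as a percent of the posterior mean, the larger of the 2 libraries (vertical axis, logarithmic above 0.01 and linear under it). All points lie under the 10% limit, and the factors at the right, EIF3C, EEF1G and EIF4A1, are spread from 1.93% to 0.0992%.

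Shared sequence and this uncertainty did not go together in every gene. At least 50% of the 50-base windows of the canonical transcript were shared with another gene in 4 members (8.16%), against 5.71% of the detected protein-coding genes. They were EIF3C with 98.8%, EEF1G with 98.3%, EIF4A1 with 95.03% and EEF1B2 with 62.2%. EEF1G and EIF4A1 shared them mainly with ENSG00000255508 and ENSG00000264772, genes without a symbol that overlap them on the same strand, and these received 165 and 133 counts and 49.9 and 26.6 counts. The posterior SD of EEF1G and EIF4A1 was 0.0992% and 0.149%. Whether reads were counted by strand is not stated in the sources used here. The median member shared 4.38% of its windows, against 0.555% in the detected protein-coding genes, and 12 members shared none.

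Pseudogenes named after the members numbered 166 in 28 families, of which 89 had reads and 15 were detected. They held 6.69% ± 0.342 of the estimated counts of the members and copies together (SD, n = 2). EEF1A1 stood apart with 48 copies that held 31.2% of its family in replicate 1 and 28.3% in replicate 2, and nearly all of this was at EEF1A1P5, whose level was 1619 and 1466 TPM. Without EEF1A1 and its copies the share was 0.519%. EIF2S2 had 17.1% and 17.4% of its family at copies, mostly at EIF2S2P4 with 358 and 340 counts. EIF4E had 13.9% and 14.9%, mostly at EIF4EP2 with 139 and 150 counts. EIF1AX had 8.90% and 5.03%, all at EIF1AXP1. In 19 of the 28 families the copies held under 1%, and the copies of EIF1, EIF3M and EIF5 had no reads.

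**Figure D5:**
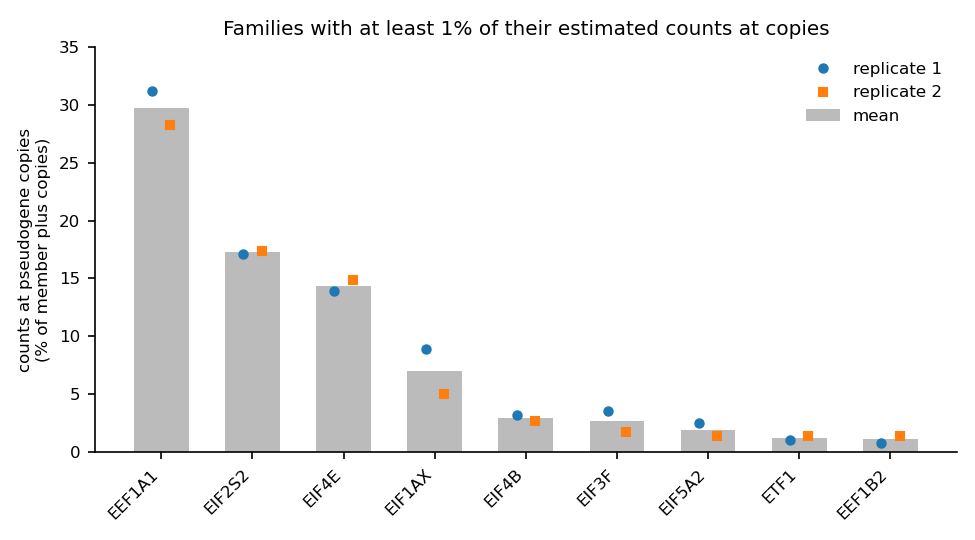
Estimated counts at pseudogene copies as a percent of member plus copies, for the 9 families with at least 1%, with replicates as points and their mean as bars. EEF1A1 leads with 31.2% and 28.3%, followed by EIF2S2 and EIF4E, and EIF1AX shows the widest gap between the libraries relative to its mean among the first 4.

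Of the 166 copies 23 had enough reads to be tested between the libraries, and 5 of these differed (21.7%, against the 3.87% of all genes tested). They were EEF1A1P5, EIF1AXP1 and EIF4BP7, and, named after their values were seen, EIF3FP3 and EEF1B2P3. The test takes estimated counts as they are and leaves out their posterior SD. This SD was 13.9 and 12.5 counts for EIF4BP7 and 18.6 and 20.4 for EIF1AXP1. EIF3FP3 had 65.9 and 31.8 counts with an SD of 11.9 and 10.0. EEF1B2P3 had 13.1 and 34.9 counts with an SD of 6.76 and 9.16. Whether these 5 copies differ beyond the sharing of reads was not tested. EIF4BP7 had 122 and 68.7 counts (adjusted p = 0.0221, exact binomial test), while its parent EIF4B had 6572 and 6102 counts (adjusted p = 0.726, exact binomial test). EIF5AL1, an intronless relative of EIF5A that is annotated as protein-coding, had 364 and 346 counts.

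The transcription starts of the members were searched for TOP-like runs, a feature that the choice of members did not use. RefSeq starts (from a table on GRCh38.p14) were matched for 39 of the 49. No start was matched for EIF2S2, EIF3A, EIF3E, EIF3G, EIF3H, EIF3L, EIF4EBP1, EEF1A2, EEF1D and PABPC1, so these were not searched. A TOP-like run was a C followed by at least 7 letters each C or T, on the sense strand and beginning within 20 bases of a listed start. It could begin on either side of the start, so letters before the start, which are not in the mRNA, counted too. It was found in 13 of the 39 members (33.3%), against 18.6% of the 27305 symbols with a listed start. A run of a C and at least 4 such letters beginning within 2 bases of the start was found in 14 (35.9%), against 13% of all symbols. The starts of EEF1A1, EEF2 and other members are shown as 10 bases before and 20 bases from the RefSeq start, 5′ to 3′, with the run at the start in capitals. Positions are those of an exact match in GRCh37, namely chr6:74230736-74230765 (minus strand) for EEF1A1, chr19:3985442-3985471 (minus) for EEF2, chr2:207024609-207024638 (plus) for the second start of EEF1B2, chr11:8008874-8008903 (plus) for EIF3F, chr19:39109818-39109847 (plus) for EIF3K, chr12:53400230-53400259 (plus) for EIF4B, and chr17:7210308-7210337 (plus) for the first start of EIF5A, which had no run.
EEF1A1: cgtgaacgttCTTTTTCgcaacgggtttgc
EEF2: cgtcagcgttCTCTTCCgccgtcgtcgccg
EEF1B2: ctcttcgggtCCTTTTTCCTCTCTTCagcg
EIF3F: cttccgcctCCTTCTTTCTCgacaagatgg
EIF3K: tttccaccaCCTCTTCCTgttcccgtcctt
EIF4B: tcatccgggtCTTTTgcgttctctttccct
EIF5A: tgggaacccgaccacactagcgcgctagaa
EEF1A1 and EEF2 begin with runs of 7 letters, which are too short for the longer criterion and pass the shorter one.

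The run at the start was found in EIF2S3, EIF3D, EIF3F, EIF3J, EIF3K, EIF3M, EIF4A2, EIF4B, EIF4E2, EIF4G2, EIF4EBP2, EEF1A1, EEF1B2 and EEF2. Of the 5 listed eIF3 members with it, EIF3M had a mean of 445 TPM and EIF3J of 112 TPM, which are near the top and at the bottom of that complex. Members with a TOP-like run had a median of 281 TPM and those without one a median of 119 TPM, a difference of 1.23 ± 0.0384 on the scale of log2(TPM + 1) (SD, n = 2). By the run at the start the medians were 254 and 131 TPM, a difference of 0.95. Both groups of members spanned a wide range, from 112 to 1709 TPM with a TOP-like run and from 5.86 to 3561 TPM without one. In EIF3C, EIF3I, EIF4H, EIF4E and EEF1G, the last being the member with 1709 TPM, the TOP-like run lay wholly before the listed start. EEF1A1 and EEF2 counted as members without one. The runs are letters at annotated starts, and the starts used in these cells were not measured.

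Another feature the choice did not use was the position of small RNAs. The annotation marks 14 of the 49 members (28.6%) as hosts of a non-coding RNA, against 13.7% of the detected protein-coding genes. They were EIF1AX, EIF3A, EIF3C, EIF4A1, EIF4A2, EIF4H, EIF4G1, EIF4G2, EIF4G3, EIF5, EEF1B2, EEF1G, EEF2 and PABPC1. Of the 7 members above 1000 TPM 5 were hosts, and EEF1A1 and EIF5A were not. The share of hosts among the 91 detected protein-coding genes at that level was not counted, so the 5 have no background at equal level.

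The median level of other genes of the pathway was lower than that of the members. Of 46 related genes in 6 lists 42 were detected (91.3%), and all 46 had a median of 42.1 TPM against 196 TPM for the members, although TUFM, LARP1 and PABPC4 lay above the latter. All 7 kinases of eIF2alpha, eEF2 and eIF4E were detected, from EIF2AK3 (PERK) with 11.7 and 8.34 TPM to EIF2AK1 (HRI) with 107 and 103 TPM. Of 13 other initiation factors 11 were detected, from EIF3CL to EIF2A with 127 and 119 TPM. Of the other termination and recycling factors HBS1L, a ribosome rescue factor, was highest with 122 and 125 TPM. Of 8 other poly(A)-binding proteins and partners 6 were detected, from PAIP2B with 5.98 and 6.70 TPM to LARP1, which binds TOP mRNAs, with 247 and 232 TPM.

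The 9 mitochondrial translation factors were all detected and ran from MTRF1 with 12.8 and 11.5 TPM to TUFM, the mitochondrial counterpart of eEF1A, with 296 and 278 TPM. The mean of TUFM lay far under that of EEF1A1. Of the 5 other elongation factors and hypusine enzymes EIF5AL1 was lowest with 12.9 and 12.7 TPM and EEF1E1, a scaffold protein of the tRNA synthetase complex, highest with 68.2 and 66.9 TPM. EIF4E1B, an oocyte form of eIF4E, and PABPC5 had 0 counts in both libraries, which allows up to 3 counts each. PABPC3, the testis form of the poly(A)-binding protein, had 1.13 and 2.25 counts. Of the 42 genes with enough counts for the test 1 differed between the libraries, against 3.87% of all genes tested. It was ABCE1, the ribosome recycling ATPase, named after its values were seen, with 1914 and 2127 counts (adjusted p = 5.40e-05, exact binomial test).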

How the data were processed

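RNA-Seq of poly(A)+ RNA from HEK293T cells was analysed in 2 libraries of 1 group. Per the submitters' processing notes and the study's methods, the authors used Trimmomatic 0.36 for trimming and STAR 2.6.1c for alignment to GRCh37 with Ensembl genes. The methods name featureCounts, whereas the deposited columns are those of RSEM, and RSEM 1.3.1 is in the notes. The authors deposited estimated counts (expected counts, in which ambiguous reads are divided among genes), TPM (length-corrected, same total in each library) and FPKM (length-corrected and scaled by library size). The posterior SD, the bounds of the TPM interval and the effective length are scores deposited by the authors. The deposited TPM lay above that interval in 26 and 25 members, so the interval was not used as an error. In a table of pooled reads, counts of all 49 members were within 1% of the sum of the libraries.

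Symbols and GRCh37 positions came from GENCODE release 44 mapped to GRCh37, which matched 96.1% of the gene identifiers. Estimated counts were rounded and scaled by TMM (edgeR 4.0.16, R 4.3.3), and an exact two-sided binomial test (scipy 1.17.1) set replicate 2 against replicate 1 for all genes whose counts summed to 10 or more. Log2 ratios used 0.5 added counts. On simulated data the test called 176 of 200 genes changed 1.5-fold and 9 unchanged genes, over 17984 genes. The simulated counts held counting error only, as the test assumes, and the changed genes had summed counts of at least 200. The simulation therefore cannot tell how often the test calls unchanged genes in real libraries. Shared windows of 50 bases, the read length, were counted between the canonical transcript of a member and the transcripts of every other gene, on both strands. Copies were pseudogenes named after a member. Detected meant a TPM of at least 1 in both libraries. The members, the lists of related genes and kidney markers, and the tests were chosen with earlier results of these data known. A marker on the kidney list is not reported here. All members could be named. Of related genes the highest and lowest detected of each list, those with 0 counts and the paralogs could be named, and of the copies the 5 with the highest mean count. Alternatives were other thresholds and units, RLE and total-count scaling, other definitions of copies and runs, and leaving out each replicate.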

Additional observations from a re-analysis of the deposited data

How the results depend on the processing

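All 49 members stayed detected at a TPM of 0.1 or 5, an FPKM of 1 or 10 estimated counts in both libraries and in either library alone, and 0 were uncertain at limits of 5% and 20%. The count of 7 members that differed was 7 with RLE scaling, 8 with total counts, 6 with no filter and 6 over genes with a small posterior SD, the gain being EIF4G1 and the loss EIF5A. Over all genes tested 693 of 17920 differed with TMM and with RLE scaling, and 704 of 17920 with total counts. With no filter 564 of 30700 genes differed, and 333 of 15707 with a small posterior SD. Summing members with their copies, leaving out the highest gene or EEF1A1 with its copies, canonical lengths and runs at the start were chosen after seeing the data. The cause of these moves was not tested.

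The share at copies, 6.69%, was 7.73% in TPM, 7.10% with paralogs as copies, 0.519% without the EEF1A1 family, and 6.45% to 6.93% leaving out a replicate. The share of TPM, 2.09%, was 2.40% in counts, 2.998% of protein-coding TPM, 1.73% without EEF1A1, 2.31% without the highest gene, and 2.05% to 2.13% leaving out a replicate. The eIF3 range, 4.35-fold, was 3.30-fold without EIF3J, 8.07-fold in counts, 11.0-fold by canonical length, 4.42-fold with EIF3CL added to EIF3C, and 4.10-fold to 4.60-fold leaving out a replicate. The difference of 1.23 between members with and without a TOP-like run was 1.49 with at least 5 letters after the C, 0.95 within 5 bases of the start and 0.95 for the run at the start, and 1.19 to 1.24 leaving out a replicate.

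No paired analysis was possible because there is a single group. Leaving out a replicate gives no comparison of libraries. With 2 libraries the spread of single genes is poorly known, and the sharing of reads limits EIF3CL, with a posterior SD of 147.5 and 147.4 on 203 and 173 counts.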
